A study of Mus musculus with 15 samples.

Results

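The comparison described here set the 3 libraries of beta-actin knockout (KO) cells against the 3 libraries of wild-type (WT) cells at day 14, which are 6 of the 15 RNA-seq libraries of the series. Libraries were chosen by the genotype and the day on their labels. The cells were mouse embryonic fibroblasts (MEFs), connective tissue cells grown in culture, from BALB/c embryos labelled as 10.5 days old. WT cells are labelled as having both copies of the beta-actin gene Actb, and KO cells as lacking both. Cells of each genotype were grown to confluence on Matrigel and then kept, up to day 14, in an osteogenic induction medium (OsteoMax-XF) that held dexamethasone, a glucocorticoid, and forskolin, an activator of adenylyl cyclase, each listed at 5 mM, a unit that could not be checked here. The labels call the product chemically reprogrammed osteoblasts. The other 9 libraries were WT and KO at day 4 and heterozygous cells at day 14, with 3 each. They entered the gene filter, the scaling, the estimate of spread, a correction for exon length and GC content and, where said, a day 4 contrast. The labels name no embryo, culture or clone behind a library, so p-values measure only the spread between these libraries, and a difference in origin between the WT and KO cells cannot be told apart from the loss of Actb.

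Beta-actin and gamma-actin are the cytoplasmic actins of non-muscle cells. They polymerize into filaments that give a cell its cortex and stress fibres, and the pool of unpolymerized actin holds the coactivator MRTF away from the transcription factor SRF. Actin is also a subunit of chromatin remodelling complexes in the nucleus. Osteoblasts are the cells that secrete and mineralize bone matrix, and they arise from mesenchymal progenitors that can also form cartilage, fat and smooth muscle.

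Reads counted in genes ran from 20.02 to 20.42 M per WT library and from 21.5 to 24.8 M per KO library. The KO libraries lay close together, since any pair differed with a chi-square of 2.27 to 2.57 for each degree of freedom, and the WT libraries lay further apart, at 5.06 to 18.9. Of the heterozygous libraries, replicate 2 stood apart from the others at 51.6 and 52.05. Like all 15 libraries, it entered the gene filter, the scaling, the estimate of spread and the length and GC correction used below. A fit of the compared groups alone tested 14151 genes and called 9627. Levels below are CPM, the counts of a gene scaled to the total of its library times the library's TMM factor. Changes are log2 values of KO minus WT from edgeR's quasi-likelihood fit. The SE given after ± was computed from that fit's spread of each gene and was not set below counting error. This spread was shared by the 5 groups, although the WT libraries lay further apart than the KO libraries. A gene is said to have risen or fallen where its Benjamini-Hochberg adjusted p was under 0.05. Of the 193 tested genes named below, 184 passed, and the largest adjusted p among these in edgeR was 0.0483.

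Of the 15296 genes tested, 9653 passed, which is 63.1%. KO was higher for 4727 (30.9%) and lower for 4926 (32.2%), and these shares are the background for each gene group below. The median change over all genes was -0.02. In bulk RNA, fewer cells of a type and less RNA per cell cannot be told apart for any of them. Large differences leaned to loss in KO. At 4-fold or more, 600 genes were higher and 977 lower. At 32-fold or more, 80 were higher and 286 lower. More genes had any count in WT, with 22087, 23302 and 24154 in its libraries and 19535 to 19981 in those of KO. The WT libraries of day 4 had 18570 to 19924. The part of this excess in the large losses was not tested. The 3 libraries of a genotype did not overlap with those of the other for 10567 genes (69.1%).

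**Figure D1:**
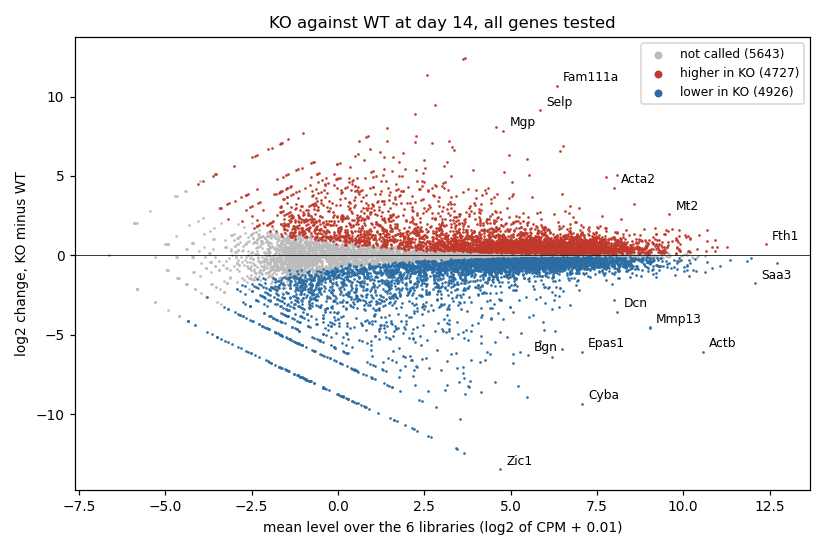
Each point is a gene tested, with its mean level over the 6 libraries on the x axis (log2 of CPM + 0.01) and its log2 change, KO minus WT, on the y axis; colours show genes called higher (4727), lower (4926) or neither. The points below zero reach further from the axis than those above it, with 286 genes lower and 80 higher by 32-fold or more.

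Actb, the targeted gene (ENSMUSG00000029580, chromosome 5, 142903115 to 142906754 of GRCm38), stood at 2947, 2974 and 3067 CPM in the WT libraries and at 46.5, 43 and 44.6 in the KO libraries. The remaining KO reads were 67-fold below the WT level, a change of -6.07 ± 0.06. Actg1, which encodes the gamma cytoplasmic actin, was at 723, 855 and 858 CPM in WT and at 2516, 2482 and 2485 in KO. Acta2, the smooth muscle alpha-actin, was at 25.1, 25.9 and 26.6 in WT and 499, 491 and 475 in KO. The total of the 6 actin genes, counted per kilobase of exon, differed far less than any of these. It came to 1384, 1444 and 1480 CPM per kilobase in the WT libraries and to 1195, 1177 and 1171 in the KO libraries. On that scale Actb made up 76.9% to 79.5% of actin transcripts in WT and 1.37% to 1.45% in KO. Actg1 took 79.2% to 79.8% of them in KO, against 19.7% to 22.3% in WT, and Acta2 18.5% to 19.03%, against 0.816% to 0.825%. Actin genes are close in sequence, so reads may be split among them in ways the counts do not show. The kit did not mark strand, so reads of a gene and of an antisense gene that overlaps it are not separated.

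The difference between the genotypes was ordered by transcript length among genes above a minimum mean level. These genes, fewer than the 15296 tested, were split into 10 equal classes by the length of their exons. Tested genes of lower level were left out. In the shortest class, with a median of 1223.5 bases, the median change was -0.31, with 181 of 1140 genes higher in KO and 567 lower. In the longest class, with a median of 12465.5 bases, it was 0.35, with 651 higher and 152 lower. Between them the median rose from class to class. At day 4 the same 2 classes had medians of 0.12 and -0.09.

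The WT libraries of day 14 differed among themselves along the same axis. WT replicate 1 lay 0.14 below its group mean in the shortest class and 0.14 above it in the longest. WT replicate 3 lay 0.13 above and 0.11 below, and WT replicate 2 within 0.02 of the mean in these classes. The KO libraries lay within 0.01 of their group mean in both. The KO mean minus a single WT library ran from -0.19 to 0.20 between the shortest and longest classes for replicate 1, from -0.32 to 0.38 for replicate 2 and from -0.41 to 0.48 for replicate 3. The order by length was thus present against each WT library, at a size that varied 2.34-fold among them in the longest class. The same genes, split by the GC content of their longest transcript, were ordered too. The median change was 0.098 in the class lowest in GC, with 468 genes higher and 275 lower. It was -0.275 in the highest, with 235 higher and 605 lower. After a correction for exon length and GC content in each library, the medians of the shortest and longest classes were -0.02 and 0.01. The correction took out both at once, so the part of each was not tested. Whether either order reflects the cells or the libraries was not tested.

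**Figure D2:**
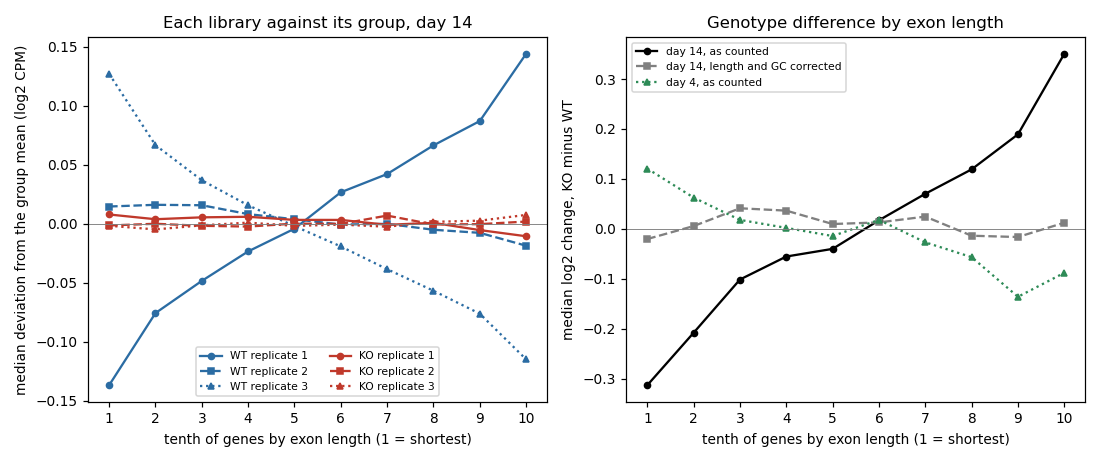
The x axes give 10 classes of genes by exon length; the left panel plots the median deviation of each of the 6 libraries from its group mean (log2 CPM), and the right panel the median log2 change, KO minus WT, at day 14 with and without the length and GC correction and at day 4. WT replicates 1 and 3 slope in opposite directions while the 3 KO lines stay flat, and the day 14 difference climbs from -0.31 to 0.35 without the correction.

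Transcripts of the cytosolic ribosome, which are short, were lower in KO in nearly every member. Of 80 tested ribosomal protein genes, 72 fell in KO and 1 rose, with a median of -0.67. Their summed share of counts was 3.73%, 4.21% and 4.66% in the WT libraries and 2.42% to 2.44% in the KO libraries, so no KO library reached the lowest WT library. Rpl41 was at 1786, 2126 and 2553 CPM in WT and 1041, 1047 and 1017 in KO, and Rpl35a at 346, 412 and 442 in WT and 146, 149.6 and 151 in KO, changes of -1.06 ± 0.17 and -1.43 ± 0.12. With the length and GC correction 65 fell and 5 rose, with a median of -0.49. Ribosomal protein genes have many processed copies in the genome, so their counts depend on how shared reads were treated. Proteins of the mitochondrial ribosome had 36 of 77 lower and 14 higher, or 31 and 18 after the correction.

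With the length and GC correction, 8349 of the 9653 calls were kept in the same direction, and 9899 genes were called in all. Some abundant genes turned. The transcription factor genes Cebpb and Jund, both short, rich in G and C and without introns, moved from -0.51 ± 0.13 and -0.52 ± 0.09 to 0.41 and 0.38. Samd1, a chromatin reader of CpG islands, moved from -0.61 ± 0.06 to 0.26. The cell cycle inhibitor locus Cdkn2a (-0.19 to 0.33), the protease inhibitor Timp1 (-0.03 to 0.25) and Col1a1, the main chain of bone collagen (-0.05 to 0.09), did not pass without the correction and rose with it.

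The genes that gained most transcripts in KO were Actg1, mitochondrial, metal-binding, lysosomal, lipid and cytoskeletal genes. Mt2, a metallothionein that binds zinc and copper, was at 195, 227 and 244 CPM in WT and at 1270.1, 1326 and 1377 in KO, a change of 2.58 ± 0.13. Grn, the precursor of the granulins, which act in lysosomes, was at 377, 386 and 398 in WT and 1253, 1232 and 1221 in KO (1.67 ± 0.05). Fasn, the fatty acid synthase, was at 537, 453 and 424 in WT and 1430.0, 1418 and 1429.7 in KO (1.60 ± 0.12). Genes of this ranking were chosen among those that differed by 2-fold or more and did not overlap between the genotypes. The autophagy receptor Sqstm1 (1.24 ± 0.06), the intermediate filament vimentin, Vim (1.15 ± 0.06), the myosin heavy chain Myh9 (1.12 ± 0.10) and P4hb, a subunit of collagen prolyl hydroxylase (1.04 ± 0.05), gained more than 2-fold each.

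The genes that lost most were the acute-phase gene Saa3, Actb, matrix and immune genes and ribosomal protein genes. Saa3, a serum amyloid, was at 5684, 6790.4 and 7602 CPM in WT and at 2005, 1951 and 1989 in KO (-1.76 ± 0.14). Mmp13, the interstitial collagenase made by osteoblasts and cartilage cells, was at 999, 1019.6 and 989 in WT and 43.6, 44.1 and 41.6 in KO (-4.54 ± 0.05). Dcn, decorin, a proteoglycan that coats collagen fibrils, was at 488, 506 and 513 in WT and 44.3, 43.7 and 39.4 in KO (-3.57 ± 0.06). These genes too were chosen among those that did not overlap between the genotypes, and Mmp13 and Dcn varied little within a genotype. The chemokine Cxcl5 (-1.27 ± 0.10), haptoglobin, Hp (-1.36 ± 0.11), and the class I heavy chain H2-D1 (-1.23 ± 0.07) also fell by more than 2-fold.

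**Figure D3:**
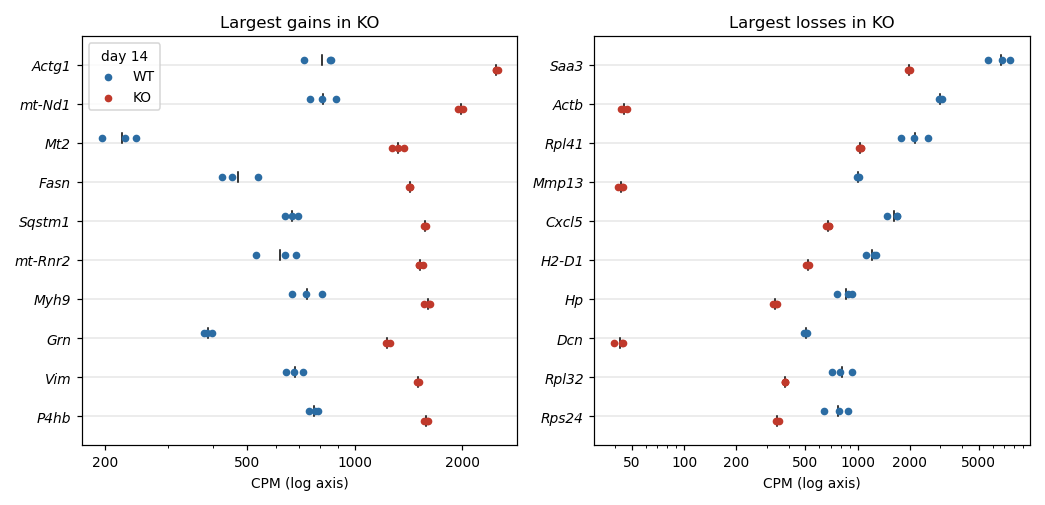
Dots give the CPM of each library at day 14 on a log axis for the 10 genes with the largest gain (left) and the 10 with the largest loss (right) of mean CPM in KO, and black ticks give group means. The 20 genes were chosen among those whose WT and KO libraries do not overlap, and Actb, Mmp13 and Dcn lie furthest apart.

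A set of genes was close to silent in 1 genotype. Fam111a, a nuclear protease, was at 0.0467, 0.139 and 0.0935 CPM in WT and 167, 158 and 159.6 in KO. Mgp, matrix Gla protein, an inhibitor of calcification in soft tissue and cartilage, was at 0.327, 0.186 and 0.187 in WT and 52.9, 55.6 and 56.2 in KO, a change of 7.85 ± 0.48. The carbonyl reductase gene Cbr2 rose by 6.86 ± 0.20 and the adhesion receptor P-selectin, Selp, by 9.12 ± 0.53. Sulf1, a sulfatase that edits heparan sulfate, rose by 8.07 ± 0.50 at day 14, while at day 4 its mean was 1.30 ± 0.0599 CPM in WT and 0.0192 ± 0.0167 in KO (SD, n = 3). In the other direction, Zic1, Cdkn1c and the ubiquitin ligase gene Rnf144a had no count in any KO library. With KO set at a floor of 3 counts over the group, Zic1 was at least 1233-fold lower, Cdkn1c at least 511-fold and Rnf144a at least 499.7-fold. Cyba, the membrane subunit shared by NADPH oxidases, was at 239, 274 and 290.4 CPM in WT and at 0.211, 0.503 and 0.514 in KO, a change of -9.34 ± 0.38, against -0.94 at day 4. The amino acid transporter Slc38a4 fell by 8.89 ± 0.59 and the respiratory globin Cygb had a WT to KO ratio of 715 (95% counting interval 128 to 28282).

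The bone program moved in both directions. Among 18 tested osteoblast transcription factors, 8 rose and 8 fell, with a median of 0.08. Runx2, which commits cells to the lineage, was at 21.8, 21 and 18.9 CPM in WT and 33, 31 and 31.5 in KO (0.63 ± 0.08). The homeobox factor Msx1 had a WT to KO ratio of 1653 (95% counting interval 296 to 65341), while its relative Msx2 rose by 2.89 ± 0.20. Twist2 (-1.77 ± 0.18), Prrx1 (-2.12 ± 0.09) and Prrx2 (-3.08 ± 0.12), factors of early limb and skull mesenchyme, fell.

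Genes of mineralization had 6 of 13 higher and 2 lower. Alpl, the alkaline phosphatase that frees phosphate for mineral, was at 132, 118 and 133 CPM in WT and at 30.2, 31.6 and 34 in KO (-1.998 ± 0.07). Enpp1 (0.86 ± 0.12), which makes the mineral inhibitor pyrophosphate, and Ank (0.44 ± 0.06), which carries pyrophosphate out of the cell, rose. The matrix proteins osteopontin, Spp1 (0.25 ± 0.09), and osteonectin, Sparc (-0.06 ± 0.05, adjusted p = 0.346 in edgeR), were close to level. The Spp1 call (edgeR adjusted p = 0.0199) was lost without WT replicate 1 (0.0874) or KO replicate 1 (0.0559). Tnfsf11, the RANKL signal by which osteoblasts drive osteoclasts, was at 55.5, 58.1 and 57 CPM in WT and 4.99, 7.23 and 5.65 in KO (-3.26 ± 0.12). Tnc, tenascin C, a matrix glycoprotein of bone surfaces, fell by 2.82 ± 0.18.

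Of 5 tested vitamin D genes, none rose and 2 fell. Cyp24a1, the vitamin D-induced enzyme that degrades the hormone, was at 439, 455 and 443 CPM in WT and 64.4, 60.6 and 62.8 in KO at day 14. Its log2 change was -2.83 ± 0.07 at day 14 and 4.40, the opposite direction, at day 4. The receptor gene Vdr fell by 1.08 ± 0.08 at day 14, and its log2 change at day 4 was 0.97. For both, the difference between the days passed edgeR's interaction test, as it did for 9897 of 15296 genes (64.7%).

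The late osteoblast label was only partly met by its markers in either genotype. Sp7, Bglap, Ibsp and Dmp1, which mark maturing osteoblasts and osteocytes, summed to 4, 10, 3 and 4 counts over the 3 WT libraries and to 1, 3, 0 and 0 over the 3 KO libraries. Col1a2, the other chain of type I collagen, had 20 and 8 counts, beside 64660 and 68723 for Col1a1. Its fall (edgeR adjusted p = 0.0483) was lost without WT replicate 2 (0.22) or 3 (0.101) and without KO replicate 1 (0.164) or 3 (0.14). The summed level of the 10 osteoblast markers was 2531 to 2656 CPM in WT and 2739 to 2831 in KO, most of it Col1a1 and Spp1.

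Among matrix genes, the main basement membrane collagens rose and most genes of fibrils and elastic fibres fell. Col4a1, a main chain of basement membrane collagen, was at 388, 350.1 and 339 CPM in WT and 1073, 1092 and 1083 in KO (1.59 ± 0.08). Its partner Col4a2 was at 302, 270.3 and 251 in WT and 886, 887 and 913 in KO (1.71 ± 0.08). Of 12 laminin and other basement membrane chains, 5 rose and 2 fell, or 7 and 5 with the length and GC correction. The laminin chain Lama4 rose by 1.97 ± 0.12, while nidogen 2, Nid2, fell by 3.39 ± 0.12. Lox, the enzyme that crosslinks collagen and elastin, was at 68, 61.3 and 57.1 in WT and 349, 339 and 336 in KO (2.46 ± 0.07).

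Of 11 fibrillar collagens, 7 fell and 1 rose. Col5a3 (-2.57 ± 0.10) and Col24a1 (-2.66 ± 0.16), minor fibril chains, fell, and Col3a1 rose by 0.52 ± 0.05. Of 19 elastic fibre and glycoprotein genes, 15 fell and 3 rose, with a median of -1.13 and of -1.12 after the length and GC correction. Efemp1 (fibulin 3) was at 46.3, 48.8 and 43.9 CPM in WT and 0.296, 0.229 and 0.0395 in KO. Thbs2, thrombospondin 2 (-5.46 ± 0.21), the microfibril gene Mfap2 (-4.80 ± 0.29) and fibrillin 1, Fbn1 (-1.43 ± 0.17), fell, and fibronectin, Fn1 (0.95 ± 0.19), and the TGF-beta binding protein Ltbp1 (1.04 ± 0.10) rose. Among small leucine-rich proteoglycans, 4 of 5 fell and none rose. Biglycan, Bgn, was at 96.1, 88.6 and 83.7 CPM in WT and 1.18, 1.46 and 0.830 in KO (-6.28 ± 0.17).

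Proteases that cut matrix had 6 of 17 metalloproteases higher and 9 lower. Mmp3, stromelysin, rose from 30.8, 38.9 and 36.1 CPM in the WT libraries to 194, 191 and 180.3 in the KO libraries (2.42 ± 0.09), and Mmp10, its close relative, fell by 2.86 ± 0.32. Serpinf1, a secreted serpin of bone, fell by 2.47 ± 0.08.

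Cytoskeletal genes other than actin also separated by class. Of 11 bundling and crosslinking proteins of filaments, 9 rose and 1 fell, and of 9 severing and capping proteins, 7 rose and 2 fell. Alpha-actinin, Actn1, was at 164, 140.3 and 141 CPM in WT and 386, 395 and 392.04 in KO (1.39 ± 0.08). Filamin A, Flna, rose by 1.08 ± 0.12 and supervillin, Svil, by 1.54 ± 0.13. The exception was fascin, Fscn1, at 653, 606 and 636 in WT and 254, 252 and 251 in KO (-1.32 ± 0.04), a neighbour of Actb. The monomer-binding thymosins split, with Tmsb4x at 0.82 ± 0.15 and Tmsb10 at -1.09 ± 0.08, and cofilin 1, Cfl1, which severs filaments, was at -0.27 ± 0.09. The Cfl1 call was lost without WT replicate 2 (edgeR adjusted p = 0.0528) or 3 (0.0609). Of 12 tubulin genes, 9 fell and none rose, with a median of -0.76; after the length and GC correction 8 fell and 2 rose. Tuba1a was at 302, 312 and 351 CPM in WT and 109, 111 and 107 in KO (-1.56 ± 0.07).

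Smooth muscle contractile genes had 9 of 14 higher and 1 lower, with a median of 1.59. Myl9, the regulatory light chain of smooth muscle myosin, was at 3.36, 4.96 and 4.58 CPM in WT and 31.7, 30.6 and 29.9 in KO (2.83 ± 0.13), far from its change of 11.28 at day 4. Of 22 listed SRF and MRTF targets, which share members with that list, 13 rose and 7 fell. Myh11, the heavy chain of mature smooth muscle, summed to 12 counts in WT and 9 in KO and was not tested. The 7 smooth muscle markers summed to 54.6 to 60.5 CPM in WT and 535 to 555 in KO, with 4 of 5 tested higher. Acta2 made up most of the KO sum, while in WT Smtn (27.6 ± 1.35 CPM, SD, n = 3) and Acta2 (25.9 ± 0.786) were alike in level. The part of such cells in these results was not tested. Integrins, which tie the actin cortex to the matrix, had 10 of 19 higher and 4 lower, with Itgb7 at 2.02 ± 0.08 and Itga6 at 1.65 ± 0.12. Among cadherins Cdh2 rose by 1.78 ± 0.07 and Cdh11, a cadherin of osteoblasts, fell by 3.74 ± 0.13.

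Positional identity genes, which record where in the body a fibroblast came from, differed by large folds in both directions. Of 9 tested genes of the Hox C cluster, 7 fell and 2 rose, and all 3 tested genes of the D cluster rose. Hoxc8 was at 7.61, 7.33 and 11.2 CPM in WT and 0.0846, 0.0915 and 0.0791 in KO (-6.61 ± 0.70), and Hoxc4 at 15.4, 13.9 and 12.1 in WT and 1.73, 1.14 and 1.46 in KO (-3.25 ± 0.30). Hoxd8 was at 1.87, 2.41 and 2.24 in WT and 17.7, 18.1 and 15.9 in KO (2.98 ± 0.17), and Hoxd9 rose by 4.01 ± 0.51. Hoxa11, a factor of the forearm and the uterus, was at least 286-fold lower in KO, where it had no count. In the A cluster 2 of 11 rose and 5 fell. In the B cluster 3 of 9 rose and 1 fell, or 5 and 1 with the length and GC correction.

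Outside the Hox clusters, 29 of 56 positional factors fell and 18 rose, 23 and 7 of them by 2-fold or more, against 11.6% and 9.56% of all genes. Irx1 had no count in KO and was at least 144-fold lower, and Nkx2-3 had a WT to KO ratio of 211 (95% counting interval 71.8 to 1025). Fendrr, a noncoding RNA of lateral mesoderm, had a ratio of 1013 (95% counting interval 181 to 40056). Alx1, a factor of the skull and face, rose by 2.31 ± 0.09, and the transcriptional cofactor Eya4 by 1.86 ± 0.20. Imprinted genes had 9 of 19 lower and 7 higher. Igf2, the embryonic growth factor, had a WT to KO ratio of 401 (95% counting interval 137 to 1949.8), and Peg10 was at 7.89, 7.38 and 6.03 CPM in WT and 95.7, 89.6 and 86.8 in KO (3.67 ± 0.17).

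Most secreted Wnt ligands and inhibitors were lower in KO. Of 10 tested Wnt ligands, 9 fell, each by 2-fold or more, and 1 rose. Of 7 secreted Wnt inhibitors, 6 fell and 1 rose. Sfrp1 was at 56.3, 46.2 and 47.2 CPM in WT and 1.95, 1.55 and 1.66 in KO (-4.85 ± 0.15), Sfrp2 at 9.43, 9.74 and 9.95 in WT and 0.0423, 0.0457 and 0.119 in KO (-7.01 ± 0.65), and Dkk3 fell by 6.69 ± 0.98. The feedback gene Axin2 rose by 2.57 ± 0.23 and beta-catenin, Ctnnb1, by 0.43 ± 0.04. Wnt receptors were more mixed, with 4 of 15 higher and 7 lower.

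Hedgehog pathway genes had 8 of 11 lower and 1 higher, with a median of -0.999. The coreceptors Cdon (-1.45 ± 0.14) and Gas1 (-1.02 ± 0.06) and the transducer Smo (-0.999 ± 0.13) fell, and the factor Gli3 rose by 0.61 ± 0.16. Of 12 BMP and TGF-beta ligands, 4 rose and 4 fell, and of 8 FGF ligands, 2 rose and 4 fell. Bmp4 was at 44, 37 and 39.8 CPM in WT and 4.52, 3.84 and 4.03 in KO (-3.28 ± 0.13), the coreceptor endoglin, Eng, fell by 4.88 ± 0.12, and the activin subunit Inhba rose by 1.55 ± 0.11. Fgf7 was at 117, 123.4 and 117 in WT and 5.92, 3.34 and 4.62 in KO (-4.68 ± 0.13), while the receptor Fgfr1 rose by 1.28 ± 0.04. In the IGF axis the binding proteins Igfbp5 (-5.53 ± 0.28) and Igfbp4 (-3.74 ± 0.11) fell and the insulin receptor, Insr (1.49 ± 0.13), rose. Among ephrins, Slits, netrins and their receptors, which guide cells and axons by contact or gradients, 19 of 28 fell and 5 rose. Slit3 (-7.74 ± 0.61) and Ephb2 (-5.67 ± 0.47) fell and Efnb2, an ephrin ligand, rose by 2.64 ± 0.07. The PDGF receptor gene Pdgfrb fell by 2.64 ± 0.11.

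**Figure D4:**
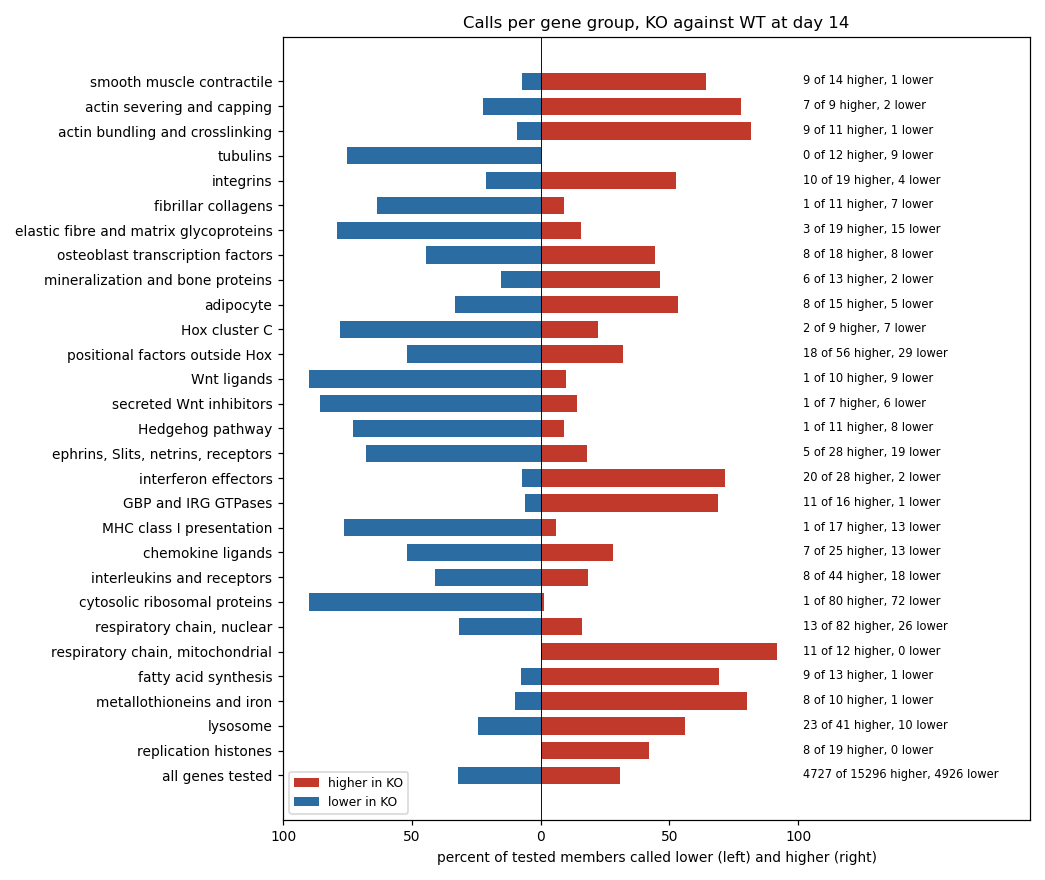
Bars give the percent of tested members of 28 gene groups, and of all genes tested, called lower (left) and higher (right) in KO, with the counts printed at the right. Wnt ligands, secreted Wnt inhibitors, MHC class I, tubulin and ribosomal protein genes lie mostly to the left, and interferon effectors, filament bundling proteins and mitochondrially encoded genes mostly to the right, while all genes tested are nearly even.

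Most interferon effectors rose, while most genes of class I antigen presentation, which interferon also induces in many cells, fell. Of 28 interferon effectors, 20 rose and 2 fell. Of 16 GTPases of the GBP and IRG families, 11 rose and 1 fell. Of 17 interferon sensors and signalling genes, 8 rose and 5 fell, with a median of 0.12. Of 17 genes of class I presentation, 13 fell and 1 rose, with a median of -0.99. The promoters of 5 of these genes are shown because the GAAA repeat that interferon regulatory factors bind is 1 sequence feature on which the 2 groups can be compared. Each is the RefSeq window from 250 bases before to 50 bases after the start on GRCm38.p6, read 5′ to 3′ on the gene's strand, and capitals mark matches, on either strand, to GAAA followed by any 2 bases and GAAA again.
Rsad2, chr12:26456403-26456702, minus strand: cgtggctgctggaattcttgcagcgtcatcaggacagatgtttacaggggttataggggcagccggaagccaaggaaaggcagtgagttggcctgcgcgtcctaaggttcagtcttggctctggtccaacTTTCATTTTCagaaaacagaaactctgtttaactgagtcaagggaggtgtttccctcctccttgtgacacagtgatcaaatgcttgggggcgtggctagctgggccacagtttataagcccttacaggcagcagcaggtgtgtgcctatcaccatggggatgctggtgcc
Ifit1, chr19:34640639-34640938, plus strand: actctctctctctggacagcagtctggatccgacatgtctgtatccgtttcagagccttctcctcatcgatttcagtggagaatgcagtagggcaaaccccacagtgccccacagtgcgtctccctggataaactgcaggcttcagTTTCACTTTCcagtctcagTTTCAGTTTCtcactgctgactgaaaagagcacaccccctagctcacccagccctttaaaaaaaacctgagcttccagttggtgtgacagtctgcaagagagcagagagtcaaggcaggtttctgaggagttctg
H2-T23, chr17:36032652-36032951, minus strand: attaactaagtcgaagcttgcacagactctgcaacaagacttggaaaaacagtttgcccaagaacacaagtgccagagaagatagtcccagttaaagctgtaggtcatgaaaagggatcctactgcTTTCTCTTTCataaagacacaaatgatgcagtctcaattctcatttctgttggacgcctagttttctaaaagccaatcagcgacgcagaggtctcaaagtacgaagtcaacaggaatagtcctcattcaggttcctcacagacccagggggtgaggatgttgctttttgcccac
B2m, chr2:122147437-122147736, plus strand: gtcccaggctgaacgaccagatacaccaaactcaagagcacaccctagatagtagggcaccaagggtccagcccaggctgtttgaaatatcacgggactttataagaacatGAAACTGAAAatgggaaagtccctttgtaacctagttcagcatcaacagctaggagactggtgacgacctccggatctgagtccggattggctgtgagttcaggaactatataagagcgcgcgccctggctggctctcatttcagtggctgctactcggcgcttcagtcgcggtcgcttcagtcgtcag
H2-D1, chr17:35262844-35263143, plus strand: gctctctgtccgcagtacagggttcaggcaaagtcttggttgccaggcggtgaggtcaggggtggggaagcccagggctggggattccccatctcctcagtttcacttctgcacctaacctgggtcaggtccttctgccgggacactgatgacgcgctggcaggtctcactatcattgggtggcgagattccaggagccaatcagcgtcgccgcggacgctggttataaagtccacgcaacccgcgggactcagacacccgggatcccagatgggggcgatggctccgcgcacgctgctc

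A match stood in 3.44% of the 32851 windows of the table and in at least 1 window of 3.76% of the tested genes that had any. It stood in 12 of 20 interferon effectors with a window, in 10 of 10 GBP and IRG GTPases and in 3 of 13 interferon sensors and signalling genes, against 4 of 15 class I presentation genes. Among the class I genes it stood in H2-T23, the only 1 that rose, and in B2m, which fell. The window of H2-D1 held no match, which says only that these letters are not in it. Exact matches alone were counted, so a promoter without a match, in any of the groups, may still hold a variant of the repeat.

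Rsad2 (viperin), which blocks the replication of many viruses, was at 12.9, 10.02 and 10.9 CPM in WT and 70.3, 68.6 and 75.8 in KO (2.67 ± 0.09). Ifit1, a sensor of viral RNA caps, was at 34.2, 39.7 and 37.9 in WT and 75, 77.4 and 78.7 in KO (1.05 ± 0.08). Mx1 (5.17 ± 0.37), Oas2 (3.53 ± 0.27) and Iigp1 (3.83 ± 0.14), 3 other antiviral effectors, rose from low levels. Ifitm1, a membrane restriction factor, went the other way, with a WT to KO ratio of 760.1 (95% counting interval 136 to 30064). Isg15, a ubiquitin-like protein, was at 81.1, 107 and 116 in WT and 102.5, 109 and 108 in KO (0.08 ± 0.15, adjusted p = 0.671 in edgeR), and rose with the length and GC correction (0.37). Among regulators Irf7 (0.43 ± 0.08) rose and Irf1 (-0.79 ± 0.07) fell. At day 4 Rsad2 averaged 43.7 ± 1.39 CPM in WT and 0.0198 ± 0.0173 in KO (SD, n = 3), Ifit1 80.05 ± 3.79 CPM in WT and 0.963 ± 0.194 in KO (SD, n = 3) and Isg15 35 ± 1.20 CPM in WT and 1.52 ± 0.213 in KO (SD, n = 3).

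The classical class I heavy chain H2-D1 was at 1113, 1237 and 1284 CPM in WT and 517, 505 and 525 in KO (-1.23 ± 0.07). H2-K1, another, was at 459, 502 and 529.6 in WT and 236, 239 and 222 in KO (-1.10 ± 0.08). H2-Q7, a nonclassical chain, was at 101, 109 and 126 in WT and 2.37, 3.20 and 2.45 in KO (-5.39 ± 0.12). The light chain B2m (-0.58 ± 0.08), the immunoproteasome subunit Psmb8 (-2.05 ± 0.15) and the peptide transporter Tap1 (-0.99 ± 0.06) fell, and H2-T23, which encodes Qa-1, rose by 1.21 ± 0.11. Class I genes are near-identical copies and differ between strains, so counts of single heavy chains are uncertain.

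Chemokine ligands had 13 of 25 lower and 7 higher. Cxcl3 (-4.77 ± 0.18) and Ccl20 (-4.28 ± 0.29) fell and Ccl8 (5.36 ± 0.31) and Cxcl9 (3.66 ± 0.22) rose. Interleukins and their receptors had 18 of 44 lower and 8 higher. Il1rl1, the receptor of interleukin 33, was at 150.3, 145 and 139 CPM in WT and 1.90, 1.28 and 1.94 in KO, and its ligand Il33 was at 80.1, 82.1 and 78.8 in WT and 282, 284 and 283 in KO. Il19 fell by 7.90 ± 0.52. Complement and acute-phase genes split evenly, 8 of 20 higher and 8 lower. C4b rose from 1.49, 0.974 and 1.36 CPM in the WT libraries to 93.2, 88.2 and 80.4 in the KO libraries and Orm1 rose by 3.08 ± 0.09. Lcn2, a siderophore-binding protein, was above 1000 CPM in both genotypes (-0.12 ± 0.08, adjusted p = 0.202 in edgeR). Of the prostaglandin E2 enzymes, Ptgs2 fell by 0.86 ± 0.04 and Ptges by 3.02 ± 0.07.

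In energy metabolism, genes of the mitochondrial genome rose and nuclear genes of the respiratory chain did not follow. Of 12 mitochondrially encoded chain genes, 11 rose and none fell, with a median of 1.18. mt-Nd1, a complex I subunit, was at 808, 748 and 885 CPM in WT and 1951, 1980.5 and 2008 in KO (1.28 ± 0.06). The mitochondrial share of all counts was 0.484% to 0.542% in WT and 1.08% to 1.12% in KO. Of 82 nuclear-encoded chain genes, 13 rose and 26 fell, or 28 and 17 with the length and GC correction, which turned their median from -0.17 to 0.04. Ppargc1a, the coactivator that drives mitochondrial biogenesis, was at 4.01, 3.48 and 2.76 in WT and 41.6, 37.5 and 40.8 in KO (3.55 ± 0.13).

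Glycolysis genes had 12 of 22 higher and 7 lower. The glucose transporter Slc2a1 was at 73, 75.1 and 70.6 CPM in WT and 226, 230.0 and 233 in KO (1.65 ± 0.04), and hexokinase 2, Hk2, rose by 1.68 ± 0.07. Slc16a3, which carries lactate out of the cell, was at 77.4, 75.3 and 76.7 in WT and 1.44, 0.960 and 0.949 in KO (-6.09 ± 0.17), while the lactate dehydrogenase Ldha stood at -0.03 ± 0.08 (adjusted p = 0.757 in edgeR). The hypoxia-inducible factor Epas1 was at 303, 249 and 235 in WT and 3.68, 3.57 and 4.43 in KO (-6.07 ± 0.18), and its relative Hif3a rose by 7.06 ± 0.79. Car9, a carbonic anhydrase and hypoxia target, rose by 4.08 ± 0.40.

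Fatty acid synthesis had 9 of 13 genes higher and 1 lower, with Acaca (1.40 ± 0.14) and Acacb (1.72 ± 0.11), the carboxylases of its first step, beside Fasn. The lipid carrier Fabp4 was at 11.4, 13.7 and 16.1 CPM in WT and 417, 430.1 and 412 in KO (4.93 ± 0.15), the lipid droplet coat gene Plin4 rose by 6.29 ± 0.28 and the lipase Lpl by 2.43 ± 0.14. Fat cell genes as a set were mixed: among 15 tested, KO was higher for 8 and lower for 5. After the length and GC correction, 9 were higher and 2 lower. The 7 tested factors in this set counted 3 in each direction, or 4 higher and 1 lower after the correction. Summed over the listed factors, the WT libraries held 895 to 1122 CPM and the KO libraries 687 to 704. The 7 adipocyte markers summed to 13.7 to 17.8 CPM in WT and 415 to 433 in KO, most of it Fabp4. Adipoq, Plin1 and Cidec, which define mature fat cells, had 0, 4 and 1 counts over the WT libraries and 1, 0 and 0 over the KO libraries. Metallothionein and iron genes had 8 of 10 higher and 1 lower, among them Mt1 (1.51 ± 0.13), ferritin heavy chain, Fth1 (0.70 ± 0.11), and Hmox1 (1.16 ± 0.06), which releases iron from heme. Of 41 lysosome genes, 23 rose and 10 fell, among them the factor Mitf (2.25 ± 0.13) and the cholesterol exporter Npc1 (1.55 ± 0.15). Nqo1 (2.41 ± 0.19) and Gsta4 (1.79 ± 0.09), detoxifying enzymes, rose, and the extracellular superoxide dismutase Sod3 fell by 3.40 ± 0.15. Of 19 glucocorticoid-induced genes, tested in cells that all had dexamethasone in the medium, 11 rose and 6 fell. The receptor gene Nr3c1 rose by 1.05 ± 0.11, Fkbp5 by 0.80 ± 0.05 and Glul by 1.69 ± 0.05. By 2-fold or more, 8 members of the list rose and 3 fell, and its largest change was a fall.

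Proliferation genes differed little in size. Of 39, 9 rose and 19 fell, with a median of -0.07 and 1 in each direction at 2-fold or more. Mki67 was at 211, 185 and 164 CPM in WT and 208, 206 and 220.2 in KO (0.18 ± 0.12, adjusted p = 0.211 in edgeR), and the groups overlapped. Cyclin D1, Ccnd1, rose by 1.33 ± 0.10 and cyclin D2, Ccnd2, fell by 1.46 ± 0.10. The inhibitor Cdkn1a rose by 0.63 ± 0.05, while Cdkn1c, above, had no count in KO. Of 65 listed replication histone genes, only 19 were tested. Of these 19, 8 rose and none fell, among them the linker histone Hist1h1c (1.75 ± 0.11). The share called, 42.1%, was below the 63.1% of all genes. All those listed summed to 53.87 to 60.99 CPM in the WT libraries. How fully the libraries capture histone transcripts was not tested, so these calls are not a measure of histone expression or of proliferation. Immediate early genes had 11 of 21 lower and 7 higher, with Ier2 at -1.80 ± 0.11, Egr1 at -1.12 ± 0.07 and Junb at -0.9997 ± 0.08. Their median was -0.52, and 0.08 with the length and GC correction. By 2-fold or more, 1 rose and 7 fell, or 2 and 4 with the correction. The largest rise among them was 2.07 without it.

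Markers of further cell types were summed in each library, and their part in the results above was not tested. The 7 chondrocyte markers summed to 3.34 to 3.97 CPM in WT and 28.1 to 32.2 in KO. Nearly all of the KO sum was Sox9, a transcription factor of cartilage (4.10 ± 0.16). In WT, Sox9 averaged 1.77 ± 0.297 CPM and Col2a1, a cartilage collagen that fell in KO, 1.57 ± 0.143 (SD, n = 3). Acan had 4 and 0 counts. The 7 macrophage markers summed to 8.41 to 9.24 in WT and 38.3 to 41.3 in KO through Cd68, while Csf1r fell to 4 counts in KO. The 8 fibroblast markers summed to 1968 to 2112 in WT and 2898 to 2976 in KO, of which Thy1 and Lum had at most 3 counts over a group. The 7 skeletal muscle markers summed to 13.2 to 16.7 in WT and 16.2 to 17.9 in KO, most of it Des, with Ckm at 0 in all 6 libraries. Epithelial markers summed to at most 11.2 CPM, neural to 6.82, endothelial to 4.91, osteoclast to 2.69 and erythroid to 0.338 in any of the 6 libraries, with Dcstamp and Hbb-bs among those at 0.

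Median changes differed between chromosomes. Among the autosomes, the median was 0.43 on chromosome 18, where 228 of 383 tested genes were higher and 57 lower, and 0.33 on chromosome 3, where 416 of 822 were higher and 126 lower. It was -0.30 on chromosome 14, with 74 of 482 higher and 246 lower. With the length and GC correction these medians were 0.32, 0.34 and -0.34. At day 4 they were -0.23, 0.03 and -0.27, so chromosome 18 changed sign between the days and chromosome 14 did not. What lies behind these medians was not tested.

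**Figure D5:**
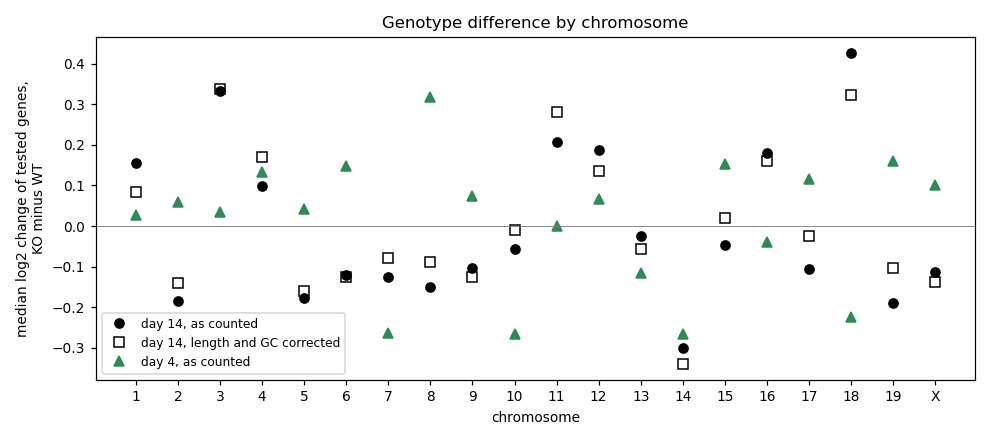
The x axis gives the chromosome and the y axis the median log2 change of its tested genes, KO minus WT, at day 14 with and without the length and GC correction and at day 4. At day 14, chromosomes 18 and 3 are the highest autosomes (0.43 and 0.33) and chromosome 14 the lowest (-0.30), and they are so with the correction too (0.32, 0.34 and -0.34).

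Around Actb itself, genes within 2 Mb tended to be lower. Of 40 tested neighbours, 23 fell and 3 rose, 7 of all by 2-fold or more, with a median of -0.53, below the -0.18 of chromosome 5. Fscn1, Rnf216 (-0.69 ± 0.07), a ubiquitin ligase gene, Rbak (-0.69 ± 0.11), a zinc finger gene, and Wipi2 (-0.50 ± 0.04), an autophagy gene, fell among the nearest, while Fbxl18 stood at 0.07 ± 0.10 (adjusted p = 0.534 in edgeR). At day 4 the log2 change, KO minus WT, of Fscn1 was 2.54. Those of Rnf216, Rbak and Wipi2 at day 4 were -0.40, -0.16 and -0.98.

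Genes that passed at day 14 passed at day 4 in the same direction only slightly more often than in the opposite one. The contrasts of the 2 days share no library. The shares below were not set against the share of all tested genes that passed at day 4. Of the 9653 genes that passed at day 14, 3793 (39.3%) passed at day 4 in the same direction, 3319 (34.4%) passed in the opposite direction and 2541 (26.3%) did not pass. Among the 3237 genes that differed by 2-fold or more (21.2% of those tested), 1212 (37.4%) did so by 2-fold or more at day 4 in the same direction and 536 (16.6%) in the opposite direction.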

How the data were processed

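Per the labels, total RNA was taken with an RNeasy kit and made into TruSeq RNA v2 libraries, which do not mark strand. The authors deposited raw counts per gene. The submitters' processing notes name TopHat2 2.1.0, HTSeq, DESeq2 and the build GRCm38.p4, while the sources used here do not give the annotation release or strand setting. Gene names and exon lengths came from GENCODE M21, which named 46091 of 46603 identifiers, and promoters from RefSeq (GRCm38.p6).

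The gene groups and the genes named were chosen with earlier results of these data known. All 15 libraries in 5 groups entered one edgeR 4.0.16 quasi-likelihood fit (R 4.3.3, TMM scaling, filterByExpr), which left 15296 genes, with Benjamini-Hochberg adjustment and a threshold of 0.05. Depth was 20.02 to 24.8 M counts per library compared. Genes named in the text were the actins, the 12 largest changes per direction with at least 10 CPM, the 10 largest gains and losses in CPM, key genes and up to 3 leading genes per direction of each of 61 lists, the 5 nearest neighbours of Actb per side, the 5 largest differences between days per direction, and the 4 genes per direction moved most by the length and GC correction, plus the cell type markers; a few of these are not reported here. The largest changes, gains and losses were taken only from genes that passed and whose WT and KO libraries did not overlap. The gains and losses in CPM also had to be of 2-fold or more. The length and GC correction fitted a spline with 5 degrees of freedom per library. Where a group had no count, folds are against a floor of 3 counts over the group. Intervals on ratios (95%) and such floors cover counting error only. Tested on simulated data with 14995 genes, the fit recovered 47 of 50 genes changed 1.5-fold, 48 of 50 changed 2-fold, 48 of 50 changed 4-fold and 50 of 50 changed 8-fold, and called 7 of 14795 unchanged genes. The simulation drew each library independently from the fit's own estimates of spread, and changed no gene of low level. It held no drift by length between libraries and far fewer changed genes than the 63.1% called here. These rates therefore do not measure error under such conditions. The alternatives were other scalings (RLE, upper quartile), DESeq2 1.42.0, other filters, only the groups compared, the replicate block, the length and GC correction, a test against a fold of 1.5 and leaving out each library.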

Additional observations from a re-analysis of the deposited data

Results flagged for a closer look

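The 10 values below are the largest differences, 5 in each direction, between the KO minus WT change at day 14 and that at day 4, and each passed edgeR's interaction test. They are differences of log2 changes. Antiviral and other genes that were higher in KO at day 14 and lower at day 4 differed by 13.82 for Sulf1, 13.47 for Rsad2, 13.36 for Peg3, an imprinted zinc finger gene, 12.83 for Olr1, a receptor of oxidized lipoprotein, and 11.25 for Mx1. Mx1 and Peg3 had no count in the KO libraries of day 4, so their values depend on the prior count of the fit and are no bound. Sulf1 and Rsad2 had very low means in those libraries, given above, so the size of their values rests on few counts.

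In the other direction the differences were -11.60 for Krt17, a keratin, -8.88 for Pianp, -8.45 for the myosin light chain Myl9, -8.39 for Cyba and -8.37 for the secreted protein Olfm1. Krt17 averaged 79.04 CPM in WT and 21.1 in KO at day 14, against 0.00762 and 11.6 at day 4. Its level in WT at day 4 was so low that the size of its value rests on few counts too. Myl9 was higher in KO on both days, by 2.83 and 11.28 on the log2 scale. Cyba was lower on both, and its mean level in WT was 34.5 CPM at day 4 and 268 at day 14. The libraries of the 2 days also differed in depth, and the part of that in these values was not tested.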

How the results depend on the processing

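The count of genes called ran from 9146 to 10124 under other scalings, filters, DESeq2, the replicate block and the length and GC corrections, 1 of which (10124, the correction within groups) was added after the data were seen. The share of calls that were higher in KO stayed between 45.5% and 50.5%. Only the test against a fold of 1.5 moved the counts by more than 1.5 times, to 3647 called, 1751 higher and 1896 lower, since it asks for a larger change. Leaving out 1 of the 6 libraries gave 8827 to 9628 calls, 4298 to 4738 higher and 4529 to 4890 lower, and 9478 to 9934 for the difference between days. Replicate numbers did not pair the libraries: deviations of same-numbered libraries correlated at r from -0.15 to 0.18, and the replicate block gave 9551 calls. The length and GC correction, without and with the replicate block, reversed Cebpb (0.41 and 0.41), Jund (0.38 and 0.38), Samd1 (0.26 and 0.26), Cdkn2a (0.33 and 0.33), Timp1 (0.25 and 0.25) and Col1a1 (0.087 and 0.0869), and the cause was not tested. The call of Spp1 was lost under upper quartile scaling (edgeR adjusted p = 0.0601), that of Col1a2 under RLE scaling (0.0503) and the replicate block (0.0557). Fold changes of genes with few counts in 1 genotype are limited by depth.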

Other observations

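Ion channel genes were more often lower than higher in KO. Of 64 tested, 31 fell and 12 rose, 25 and 10 of them by 2-fold or more, with a median of -0.76. Kcnk5, a background potassium channel, had no count in KO and was at least 209-fold lower, and the inward rectifier Kcnj4 was at 17, 19.2 and 17.6 CPM in WT and 0.803, 0.640 and 0.672 in KO (-4.66 ± 0.22). The calcium channel subunit Cacna2d1 rose by 0.72 ± 0.12.

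Subunits of the BAF and INO80 chromatin remodelling complexes, some of which bind actin, split nearly evenly, with 11 of 27 higher and 10 lower and a median of -0.08, or 0.03 with the length and GC correction. The alternative ATPases of the BAF complex stood apart in size. Smarca2 was at 32.6, 30.7 and 31.5 CPM in WT and 73.1, 69.97 and 74.8 in KO (1.20 ± 0.07), and Smarca4 at 295, 293 and 301 and 258, 266 and 271 (-0.16 ± 0.04). The actin-related subunit Actl6a rose by 0.41 ± 0.06. Notch genes had 5 of 13 higher and 4 lower, with the ligand Jag1 at 1.09 ± 0.17 and its relative Jag2 at -1.90 ± 0.21.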
